A study of Mus musculus with 10 samples.

Results

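Transcripts of 8 genes were followed in whole tumors: the CXCR2 ligands *Cxcl1*, *Cxcl2*, *Cxcl3*, *Cxcl5* and *Ppbp*, the platelet chemokine *Pf4*, and the receptors *Cxcr1* and *Cxcr2*. They are the rows of the count table whose Ensembl identifiers carry these mouse symbols, 8 of 45706. Libraries came from melanomas removed on day 4 from C57BL/6 hosts that were 8 weeks old. The *Ptgs*+/+ group held 4 tumors of COX-competent, *Braf* V600E-driven melanoma cells (wildtype tumor cells in the labels) in untreated mice. The *Ptgs*-/- group held 3 tumors of the same line made Ptgs1/Ptgs2 deficient by CRISPR, that is without COX-1 and COX-2, the enzymes that start prostaglandin synthesis, also in untreated mice. The NK cell-depleted group held 3 *Ptgs*-/- tumors in mice given anti-NK1.1 (clone PK136, 200 µg) and anti-asialo GM1 (30 µg) on days 0 and 2. All deficient tumors came from mutant cells, so any effect of cell line handling goes with the genotype and cannot be told apart from it, and the hosts kept their own *Ptgs1* and *Ptgs2*.

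CXC chemokines whose CXC motif follows the residues glutamate, leucine and arginine (ELR) bind CXCR2, a G protein-coupled receptor of neutrophils, and draw these cells out of blood into inflamed tissue. *Cxcl1*, *Cxcl2*, *Cxcl3* and *Cxcl5* are induced in stromal, epithelial, tumor and myeloid cells by cytokines such as interleukin-1 and by NF-κB. *Ppbp* encodes platelet basic protein, which proteases trim to the CXCR2 ligand NAP-2, and *Pf4* encodes platelet factor 4, which lacks ELR and is not a CXCR2 ligand. Both are stored in platelet granules, and *Pf4* is also transcribed in some tissue macrophages of the mouse. *Cxcr1* encodes the closest relative of CXCR2.

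The coding bases at the first CXC motif are shown for all 6 chemokines, because they separate the CXCR2 ligands from *Pf4*. They were read from GENCODE M21 transcripts on GRCm38, plus strand, and lie in coding exon 2 of each gene, at chr5:90891481-90891504 for *Cxcl1*, chr5:90904127-90904150 for *Cxcl2*, chr5:90786353-90786376 for *Cxcl3*, chr5:90759712-90759735 for *Cxcl5*, chr5:90769070-90769093 for *Ppbp* and chr5:90772929-90772952 for *Pf4*. Capitals mark codons for glutamate, leucine and arginine directly before the CXC codons.
*Cxcl1*: gccaatGAGCTGCGCtgtcagtgc
*Cxcl2*: gccagtGAACTGCGCtgtcaatgc
*Cxcl3*: gccagtGAGCTGCGCtgtcagtgc
*Cxcl5*: gcaacgGAGCTGCGTtgtgtttgc
*Ppbp*: tatatcGAACTGCGCtgcagatgt
*Pf4*: gatggagatcttagctgtgtgtgt
All 5 ligands held the ELR codons, and *Pf4* did not. Over the whole coding sequence *Cxcl2* and *Cxcl3* were 89.7% identical in bases, *Cxcl1* was 75.7% identical to *Cxcl2* and 72.7% to *Cxcl3*, and every pair with *Cxcl5*, *Ppbp* or *Pf4* was 48.5% to 56.1% identical. At the 3′ ends, where the reads of this assay start, no run of 50 bases within the last 500 bases of a chemokine transcript occurred in a transcript of another gene, so these libraries could tell *Cxcl1*, *Cxcl2* and *Cxcl3* apart.

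Promoters of *Cxcl1*, *Cxcl2* and *Cxcl3* are shown because these genes share a match to the NF-κB motif, and those of *Ppbp* and *Pf4* because they mark the largest and the smallest change below. Each run is the 250 bases before the RefSeq start on GRCm38.p6, plus strand: chr5:90890995-90891244 for *Cxcl1*, chr5:90903649-90903898 for *Cxcl2*, chr5:90785851-90786100 for *Cxcl3*, chr5:90768268-90768517 for *Ppbp* and chr5:90772185-90772434 for *Pf4*. Capitals mark matches to the κB letters GGGNNNTTCC on either strand, where N is any base.
*Cxcl1*: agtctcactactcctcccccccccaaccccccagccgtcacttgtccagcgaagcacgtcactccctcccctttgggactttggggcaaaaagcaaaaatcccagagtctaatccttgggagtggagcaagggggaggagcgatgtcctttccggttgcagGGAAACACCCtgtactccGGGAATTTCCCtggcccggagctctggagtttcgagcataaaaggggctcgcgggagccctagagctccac
*Cxcl2*: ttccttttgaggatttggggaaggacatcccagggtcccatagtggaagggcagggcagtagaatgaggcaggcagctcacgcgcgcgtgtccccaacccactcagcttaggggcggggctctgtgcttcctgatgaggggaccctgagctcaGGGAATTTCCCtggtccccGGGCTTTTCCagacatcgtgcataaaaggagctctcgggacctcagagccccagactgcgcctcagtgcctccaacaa
*Cxcl3*: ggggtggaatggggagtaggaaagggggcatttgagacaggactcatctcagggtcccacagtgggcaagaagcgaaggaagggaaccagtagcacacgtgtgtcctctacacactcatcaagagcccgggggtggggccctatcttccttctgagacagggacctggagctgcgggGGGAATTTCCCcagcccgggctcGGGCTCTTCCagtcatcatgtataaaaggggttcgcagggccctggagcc
*Ppbp*: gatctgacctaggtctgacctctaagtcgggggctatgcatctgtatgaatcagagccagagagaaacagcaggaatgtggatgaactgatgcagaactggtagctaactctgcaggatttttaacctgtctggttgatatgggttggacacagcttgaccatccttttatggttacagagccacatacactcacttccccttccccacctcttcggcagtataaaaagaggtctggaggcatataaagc
*Pf4*: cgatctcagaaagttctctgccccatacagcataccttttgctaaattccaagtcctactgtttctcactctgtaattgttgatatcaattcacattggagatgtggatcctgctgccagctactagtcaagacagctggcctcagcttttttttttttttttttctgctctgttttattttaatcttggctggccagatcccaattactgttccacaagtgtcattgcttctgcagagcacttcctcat
The same run, which matches on both strands, lay 71 to 61 bases before the start of *Cxcl1*, 97 to 87 before *Cxcl2* and 73 to 63 before *Cxcl3*. Each of these promoters held another match close by, at 89 to 80 on the opposite strand in *Cxcl1*, at 78 to 69 in *Cxcl2* and at 50 to 41 in *Cxcl3*. The promoter of *Cxcl5* was not analysed here. No match was found in the windows of *Ppbp*, *Pf4*, *Cxcr1* or *Cxcr2*, and 4.6% of 27025 gene promoters of this length held at least 1. Of the other motifs searched on both strands, TGACG, the core of a cAMP response element, occurred in *Cxcl1* at 2 sites and in 17.9% of all promoters. A C/EBP-like TTGCNNAA occurred in *Pf4* and in 9.55% of promoters, and the AP-1 letters TGANTCA occurred in *Ppbp* and in 6.87%. None of these matches overlapped a κB match. A match describes the letters of a window and was not tested as a binding site.

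The 10 libraries held 8150556 to 12839174 counts, and levels are given as CPM (counts per 1000000 counts of the library). QuantSeq counts a transcript once at its 3′ end, so CPM of different genes were set side by side without a length correction. How fully the tags of each gene were counted was not tested, and this limits rankings and sums across genes. The muscle gene *Tnnc2* had 1, 3 and 3 counts in NK cell-depleted tumors, where *Acta1* had 11188, 18229 and 25603. A floor of 3 counts corresponded to 0.234 to 0.368 CPM and covers counting error only. The labels carry 2 codes, the second on *Ptgs*+/+ replicate 4 and *Ptgs*-/- replicate 3, and all NK cell-depleted tumors carry the first. *Ptgs2*, which the host cells also express, was at 94.4 to 346.6 CPM in *Ptgs*+/+ tumors and at 27.0 to 74.8 CPM in the 6 *Ptgs*-/- tumors, *Ptgs1* was at 128 to 170 CPM against 77.0 to 105 CPM, and *Ncr1*, a marker of NK cells, had 0 counts in each NK cell-depleted tumor. The melanocytic markers *Mlana* and *Tyr* were at or under the floor in all 10 libraries, and *Pmel* and *Dct* stayed under 1 CPM. Of the same list, *Mitf* was at 17.4 to 33.1 CPM and *Sox10* at 0.207 to 5.53 CPM. Skeletal muscle genes set the NK cell-depleted tumors apart: *Acta1* was at 1197 to 2543 CPM there and at 7.43 to 171.4 CPM elsewhere. Tumors were the replicates, and p-values set a difference between groups against the spread between tumors.

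The first comparison asked how loss of COX in tumor cells changed these transcripts in untreated mice. Of the 8 genes, 7 were tested over all 14550 genes that passed the filter on low counts, and *Cxcr1* did not pass it. *Cxcl3* passed only through *Ptgs*+/+ tumors, and *Ppbp* through *Ptgs*+/+ and NK cell-depleted tumors, so their being lower in *Ptgs*-/- tumors is not independent of the filter. An adjusted p at or under 0.05 was met by 7 of the 8 genes, all lower in *Ptgs*-/- tumors, against 11% of all genes tested that were lower and 12.1% that were higher. With the study's further demand of a log2 fold change of 1.5 or more in size, 6 of the 8 genes were called lower (all but *Cxcr1* and *Pf4*), against 1.01% of all genes. The median log2 fold change of all genes was -0.01.

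*Cxcl5* (ENSMUSG00000029371, chromosome 5 from 90759360 to 90761624) was the most abundant CXCR2 ligand in every tumor. Its level was 108.4, 112.4, 68.5 and 118.7 CPM in *Ptgs*+/+ tumors, 17.1, 8.90 and 17.3 CPM in *Ptgs*-/- tumors, and 34.0, 32.5 and 34.8 CPM in *Ptgs*-/- tumors under NK cell depletion. No group reached into another, and the NK cell-depleted tumors lay between the others. *Cxcl5* fell by 2.88 on the log2 scale in *Ptgs*-/- against *Ptgs*+/+ tumors (SE 0.25, adjusted p = 3.95e-05), from a mean of 102.0 ± 22.8 CPM (SD, n = 4) to 14.4 ± 4.79 CPM (SD, n = 3).

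*Cxcl1* (ENSMUSG00000029380, 90891241 to 90893115), the mouse KC, had 28.4, 15.5, 11.4 and 36.2 CPM in *Ptgs*+/+ tumors. It had 6.01, 2.69 and 2.83 CPM in *Ptgs*-/- tumors and 6.85, 6.18 and 8.64 CPM under NK cell depletion. Every *Ptgs*+/+ value lay above every *Ptgs*-/- value, although the *Ptgs*+/+ tumors themselves spread over more than a factor of 3. The fitted change was -2.65 (SE 0.42, adjusted p = 0.00135). *Cxcl2* (ENSMUSG00000058427, 90903871 to 90905938), also called MIP-2, had 36.5, 9.48, 11.5 and 16.2 CPM in *Ptgs*+/+, 8.47, 3.21 and 4.10 CPM in *Ptgs*-/- and 8.99, 2.12 and 7.05 CPM in NK cell-depleted tumors. *Ptgs*+/+ replicate 1 held by far the highest *Cxcl2*, and the lowest *Ptgs*+/+ tumor was only just above the highest *Ptgs*-/- tumor. *Cxcl2* fell by 1.89 on the log2 scale (SE 0.56, adjusted p = 0.032), and the fitted change was -1.29 without *Ptgs*+/+ replicate 1 (adjusted p = 0.0925). The call was also lost without *Ptgs*-/- replicate 2 (-1.62, adjusted p = 0.131), without *Ptgs*-/- replicate 3 (-1.70, adjusted p = 0.109) and among libraries of the first code (-1.76, adjusted p = 0.135).

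*Cxcl3* (ENSMUSG00000029379, 90786103 to 90789600) was the least abundant ligand of *Ptgs*+/+ tumors, with 82, 18, 9 and 33 counts, or 6.39, 1.86, 0.790 and 3.45 CPM. *Ptgs*-/- tumors held 2, 6 and 3 counts and NK cell-depleted tumors 9, 5 and 6, so that 2 of the *Ptgs*-/- libraries were at or under the floor. The order of the *Ptgs*+/+ replicates differed from gene to gene: replicate 1 was highest for *Cxcl2* and *Cxcl3*, replicate 4 for *Cxcl1* and *Cxcl5*, and replicate 3 was lowest for *Cxcl1*, *Cxcl3* and *Cxcl5*. The fitted change of *Cxcl3* was -3.06 (SE 0.72, adjusted p = 0.0109), and among libraries of the first code it was -2.77 (adjusted p = 0.0781). Without *Ptgs*+/+ replicate 1, 2 or 4 it did not pass the filter and could not be tested. Within the second code, which has 1 tumor of each genotype, *Cxcl1* was 36.2 against 2.83 CPM, *Cxcl2* 16.2 against 4.10, *Cxcl3* 3.45 against 0.274 and *Cxcl5* 118.7 against 17.3, always lower in the *Ptgs*-/- tumor.

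**Figure D1:**
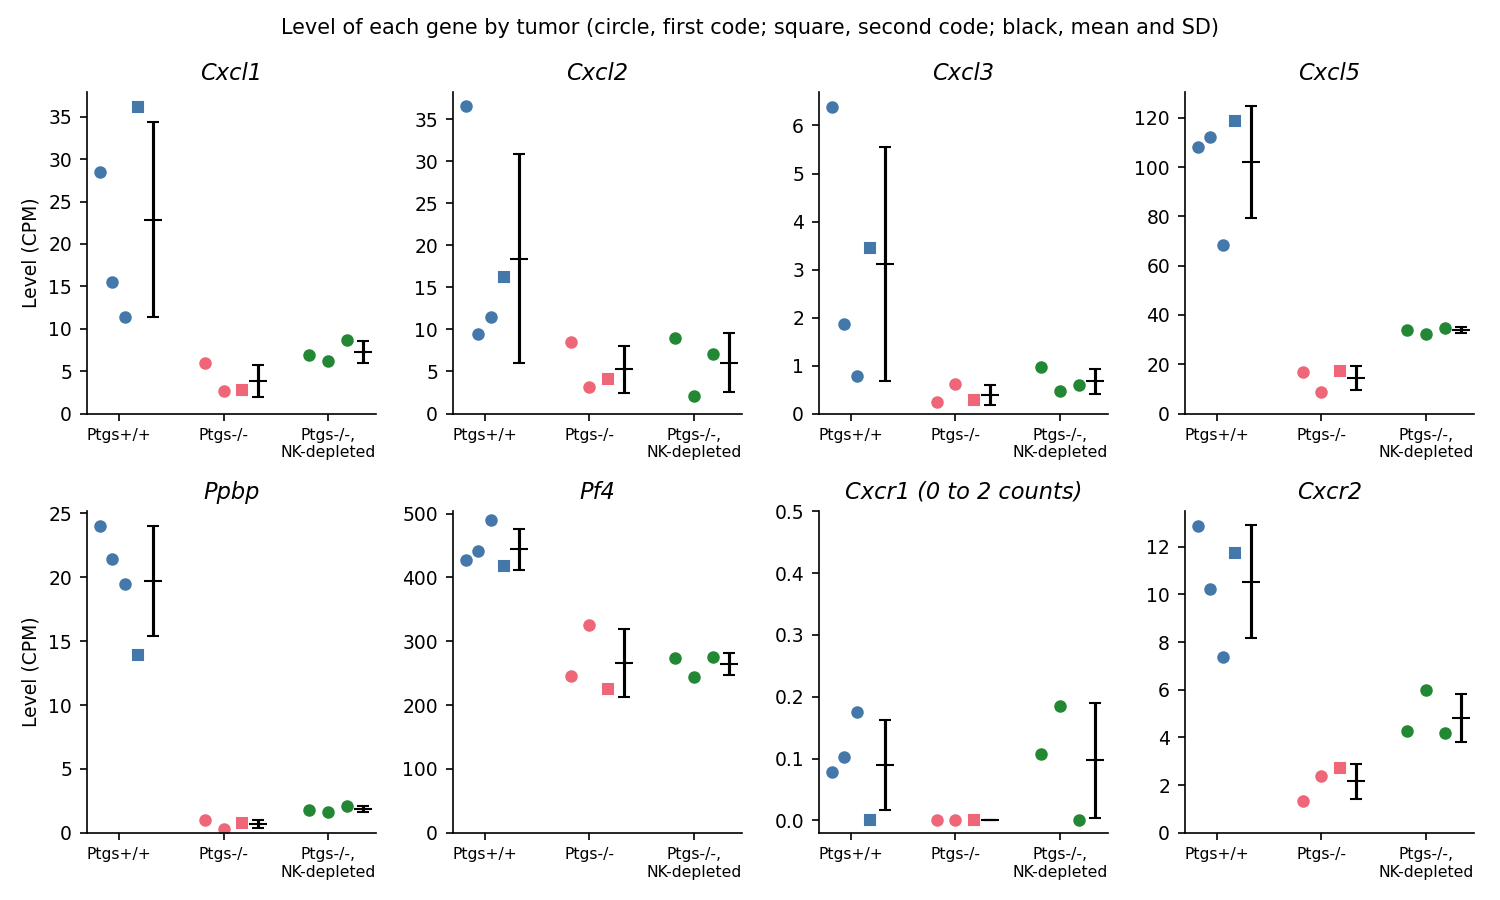
Level of each of the 8 genes in CPM (vertical axes, starting at 0 except for a small margin under *Cxcr1*) in every tumor of the 3 groups. Circles and squares are tumors of the first and second code, and the black marks are the mean and SD. For the 7 genes tested, every *Ptgs*-/- tumor of untreated mice lay below every *Ptgs*+/+ tumor, as for 12.5% of all genes tested, while for *Cxcl3* 1 NK cell-depleted tumor (0.963 CPM) lay above the lowest *Ptgs*+/+ tumor (0.790 CPM). *Cxcr1* stayed at 0 to 2 counts.

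Added up, the 5 CXCR2 ligands came to 204, 161, 112 and 189 CPM in *Ptgs*+/+ tumors. They came to 32.8, 15.7 and 25.3 CPM in *Ptgs*-/- tumors and to 52.6, 42.9 and 53.1 CPM in NK cell-depleted tumors. The 3 groups did not overlap, and the log2 sum in *Ptgs*-/- minus that in *Ptgs*+/+ tumors was -2.78 (two-sided exact permutation test, p = 0.0571, the smallest that 3 against 4 tumors allow). *Cxcl5* made up 53.2% to 70.0% of the sum in *Ptgs*+/+ tumors, 52.1% to 68.6% in *Ptgs*-/- and 64.6% to 75.7% in NK cell-depleted tumors. *Ppbp* made up 7.38% to 17.5%, 1.97% to 3.0% and 3.46% to 3.93%, respectively, and was the only ligand whose share of the sum in *Ptgs*+/+ tumors lay clear of both other groups. The shares of *Cxcl1* (9.63% to 19.2%), *Cxcl2* (4.95% to 25.8%) and *Cxcl3* (0.708% to 3.95%) overlapped between *Ptgs*+/+ and each other group.

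Within a tumor, the ratio of *Cxcl2* to *Cxcl1* differed between *Ptgs*-/- and *Ptgs*+/+ tumors by 0.70 on the log2(CPM + 1) scale, that of *Cxcl3* to *Cxcl1* by 0.84 and that of *Cxcl5* to *Cxcl1* by -0.53 (*Ptgs*-/- minus *Ptgs*+/+). The sign for *Cxcl3* rested on the 1 CPM that was added: without a pseudocount, an alternative chosen after seeing the data, the difference was -0.25 (exact permutation p = 0.857). In counts, there were 6.92 to 22.5 of *Cxcl3* for every 100 of *Cxcl1* in *Ptgs*+/+ tumors and 4.08 to 23.1 in *Ptgs*-/- tumors, overlapping ranges. None of the 3 differences on the log2(CPM + 1) scale passed the two-sided exact permutation test (p = 0.114, 0.114 and 0.286, adjusted over 12 ratio tests 0.274, 0.274 and 0.450), which at this size cannot reach 0.05.

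**Figure D2:**
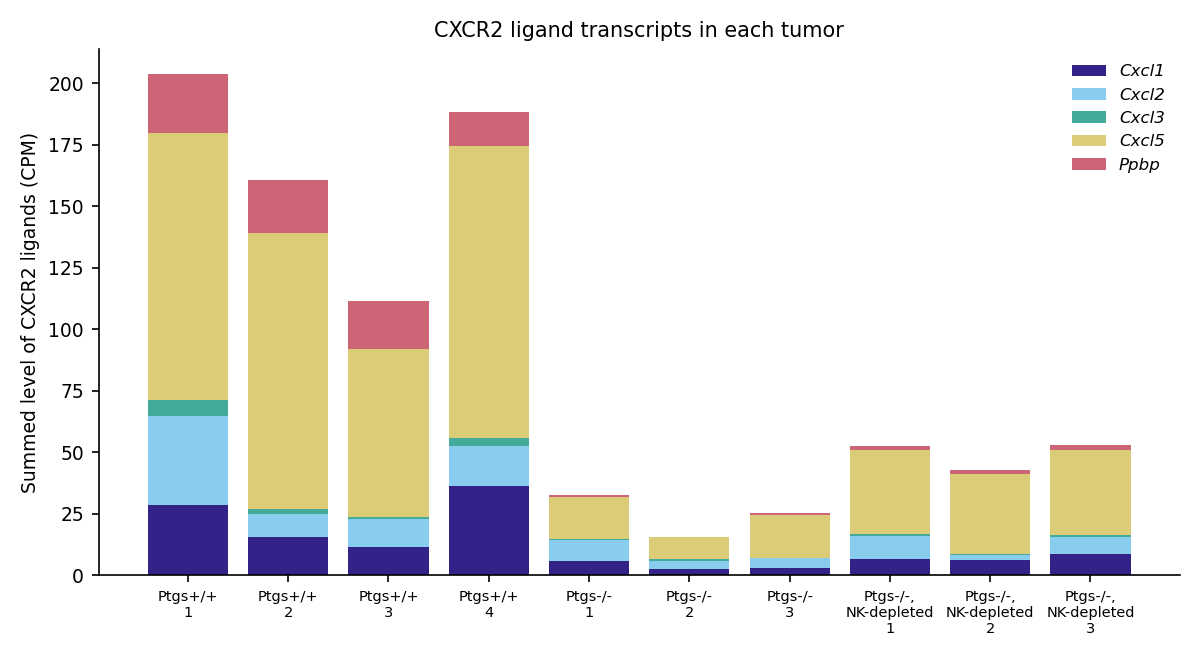
Stacked levels (CPM, from 0) of the 5 CXCR2 ligands in each tumor. *Cxcl5* is the largest part of every bar, and the 6 *Ptgs*-/- bars reach 15.7 to 53.1 CPM against 112 to 204 CPM for *Ptgs*+/+.

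The largest change belonged to *Ppbp* and the smallest to *Pf4*, platelet chemokine genes that lie next to each other. *Ppbp* (ENSMUSG00000029372, 90768518 to 90770063) had 308, 208, 222 and 133 counts in *Ptgs*+/+ tumors, or 24.0, 21.4, 19.5 and 13.9 CPM. *Ptgs*-/- tumors held 8, 3 and 8 counts (0.982, 0.310 and 0.730 CPM) and NK cell-depleted tumors 17, 18 and 21 (1.82, 1.66 and 2.09 CPM). The groups were far apart, with 1 *Ptgs*-/- library at the floor. *Ppbp* fell by 4.93 on the log2 scale (SE 0.32, adjusted p = 1.27e-05), and the change lay between -5.26 and -4.59 over 19 alternative settings.

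*Pf4* (ENSMUSG00000029373, 90772435 to 90773383) was the most abundant of the 8 genes in every tumor. It was at 426.6, 441.9, 489.8 and 417.4 CPM in *Ptgs*+/+ tumors, 246.1, 325.6 and 225.0 CPM in *Ptgs*-/- tumors and 273.2, 244.6 and 274.9 CPM in NK cell-depleted tumors. The *Ptgs*+/+ tumors lay above all others, and the other groups overlapped. *Pf4* fell by 0.80 (SE 0.13, adjusted p = 0.00168), short of the size the call demands. For every 100 *Pf4* counts there were 5.62, 4.85, 3.98 and 3.33 *Ppbp* counts in *Ptgs*+/+ tumors, 0.399, 0.0953 and 0.324 in *Ptgs*-/- and 0.666, 0.679 and 0.759 in NK cell-depleted tumors. The log2 ratio of *Ppbp* to *Pf4*, on CPM + 1, differed by -2.87 between *Ptgs*-/- and *Ptgs*+/+ tumors (two-sided exact permutation test, p = 0.0571, the smallest possible, adjusted p = 0.274). The added 1 CPM shrinks this value, since *Ppbp* was under 1 CPM in each *Ptgs*-/- tumor, and without a pseudocount the difference was -4.24.

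Most markers that define platelets and megakaryocytes were too scarce to set beside *Ppbp*. Of 10 listed, 3 were abundant enough to test, and none of these passed in any comparison. *Gp6*, *Gp9* and *Tubb1* were at or under the floor in all libraries, *Gp1ba*, *Gp5* and *Clec1b* stayed under 1 CPM, with means in *Ptgs*+/+ and *Ptgs*-/- tumors of 0.264 and 0.136 CPM for *Gp1ba* and of 0.356 and 0.167 CPM for *Gp5*, and the integrin gene *Itga2b* ran from 12.6 to 20.4 CPM in *Ptgs*+/+ and from 16.3 to 30.8 CPM in *Ptgs*-/- tumors. The summed list was at 13.5 to 24.2, 19.3 to 34.1 and 19.3 to 25.4 CPM in the 3 groups. *Itga2b* made up most of this sum in every tumor, so the sum largely restates that gene.

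Macrophage genes moved against *Pf4*. Of 12 listed, 7 rose in *Ptgs*-/- tumors and none fell, with a list median of 0.87, and the summed list went from 2050 to 2500 CPM to 3210 to 5350 CPM. *Adgre1*, which encodes F4/80, rose by 1.31 (adjusted p = 3.95e-05), and the complement gene *C1qc* by 1.05 (adjusted p = 0.000673). For every 100 counts of *C1qa*, *C1qb* and *C1qc* there were 36.3, 41.1, 35.9 and 34.4 *Pf4* counts in *Ptgs*+/+ tumors, 13, 10.9 and 10.1 in *Ptgs*-/- and 16.3, 13.3 and 15.6 in NK cell-depleted tumors. Of 4 monocyte genes, *Ly6c2* (2.19), *Ccr2* (1.75) and *Plac8* (1.55) were called higher in *Ptgs*-/- tumors. In whole tumors fewer cells of a type and less RNA per cell cannot be told apart, and the part of these cells in the levels of *Ppbp* and *Pf4* was not tested.

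*Cxcr2* (ENSMUSG00000026180, chromosome 1 from 74153989 to 74161246), the receptor of the 5 ligands, fell with them. Its level was 12.8, 10.2, 7.37 and 11.7 CPM in *Ptgs*+/+ tumors, 1.35, 2.38 and 2.74 CPM in *Ptgs*-/- tumors and 4.28, 6.00 and 4.17 CPM in NK cell-depleted tumors. The groups did not overlap, and the NK cell-depleted tumors again lay between the others. *Cxcr2* fell by 2.32 on the log2 scale in *Ptgs*-/- tumors (SE 0.28, adjusted p = 0.00031). *Cxcr1* (ENSMUSG00000048480, 74191785 to 74194631, minus strand) had 1, 1, 2 and 0 counts in *Ptgs*+/+, 0 in each *Ptgs*-/- and 1, 2 and 0 in NK cell-depleted tumors. All were under the floor of 3 counts, so no fold is given and a difference was not detectable at this depth.

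Neutrophil genes fell beside *Cxcr2*, though not all of them. Of 13 listed, 10 could be tested and 6 fell in *Ptgs*-/- tumors, 5 of them by enough to be called. *S100a8* (-2.64, adjusted p = 9.85e-06) and *S100a9* (-2.70, adjusted p = 1.47e-05) encode the calprotectin subunits, *Mmp9* (-3.17) a gelatinase, *Trem1* (-3.53) an activating receptor and *Hdc* (-1.82) histidine decarboxylase. *Csf3r*, the G-CSF receptor, was at 2.02 to 4.44 CPM in *Ptgs*+/+ and 5.17 to 5.75 CPM in *Ptgs*-/- tumors (0.61, adjusted p = 0.123), and *Retnlg* had a fitted change of 0.28 (adjusted p = 0.668). *Ly6g* stayed at 0 to 0.389 CPM, *Ngp* was at or under the floor in all libraries, and *Camp* reached at most 1.09 CPM.

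The proportion of *Cxcr2* to neutrophil genes depended on the gene it was set against. There were 5.40, 4.82, 4.14 and 6.00 *Cxcr2* counts for every 100 counts of this pair in *Ptgs*+/+ tumors, 4.66, 7.88 and 6.54 in *Ptgs*-/- and 5.52, 6.84 and 6.51 in NK cell-depleted tumors. These ranges overlapped, but *S100a9* and *S100a8* are also among the 5 genes most like *Cxcr2* over these libraries. For every *Csf3r* count there were 2.89, 3.81, 3.65 and 2.67 *Cxcr2* counts in *Ptgs*+/+ tumors, 0.256, 0.460 and 0.476 in *Ptgs*-/- and 0.976, 1.51 and 0.750 in NK cell-depleted tumors, without overlap. *Cxcl5* counts per *Cxcr2* count overlapped between groups, at 8.44 to 11, 3.74 to 12.6 and 5.42 to 8.33. The part of neutrophil number in the level of *Cxcr2* was not tested.

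**Figure D3:**
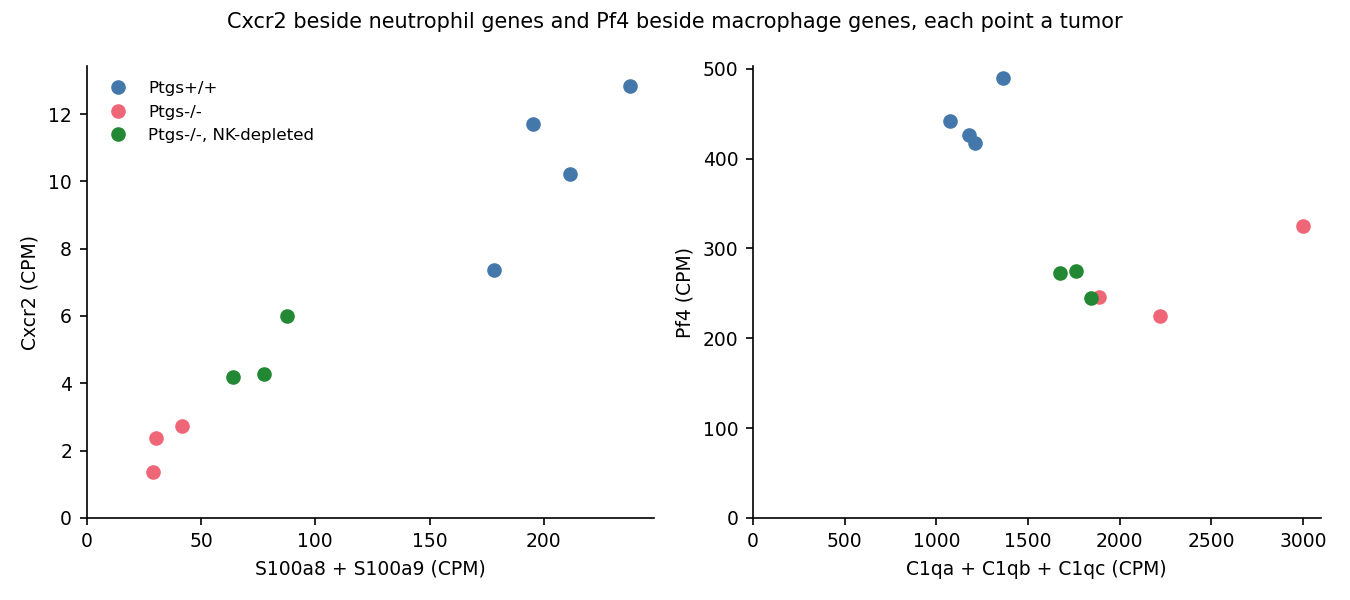
Left, *Cxcr2* against the sum of *S100a8* and *S100a9*, and right, *Pf4* against the sum of *C1qa*, *C1qb* and *C1qc*, all in CPM from 0, with a point for each tumor. The *Ptgs*+/+ tumors hold the highest *Cxcr2* (7.37 to 12.8) with the highest *S100a8* plus *S100a9* (178 to 238), but the highest *Pf4* (417.4 to 489.8) with the lowest *C1q* sum (1075 to 1366).

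The second comparison asked whether the transcripts of *Ptgs*-/- tumors depended on NK cells of the host. Between *Ptgs*-/- tumors of untreated and of NK cell-depleted mice, 1 of the 8 genes passed the test, *Cxcl5*, lower with NK cells present, against 0.921% of all genes lower and 0.515% higher. None of the 8 was called by edgeR, against 0.825% of all genes called lower, while *Cxcl5*, *Ppbp* and *Cxcr2* had an unadjusted p under 0.05 and DESeq2 called 1, *Ppbp* (-1.51). The fitted change of *Cxcl5* was -1.26 (SE 0.25, adjusted p = 0.0284), from a mean of 33.8 ± 1.17 CPM (SD, n = 3) in NK cell-depleted mice to 14.4 ± 4.79 CPM. Leaving out a library weakened it past 0.05 for *Ptgs*+/+ replicate 1, for *Ptgs*-/- replicates 2 and 3, and for each NK cell-depleted tumor, with adjusted p between 0.0571 and 0.103 and fitted changes of -0.99 to -1.38. Among libraries of the first code its adjusted p was 0.0919.

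*Ppbp* (-1.49, 95% confidence interval -2.34 to -0.65, adjusted p = 0.107), *Cxcr2* (-1.17, -1.83 to -0.51, adjusted p = 0.108) and *Cxcl1* (-0.96, -1.94 to 0.02, adjusted p = 0.462) had separate groups but did not pass. With *Cxcl5*, these were 4 genes whose *Ptgs*-/- tumors of untreated mice all lay lower, against 7.16% of all genes tested. *Ppbp* passed the filter only through the other groups, so its being lower here is not independent of the filter. *Ppbp* and *Cxcr2* passed in 3 alternatives each, among them DESeq2, with adjusted p of 0.0439 and 0.0324. *Cxcl2* (-0.24, -1.57 to 1.10), *Cxcl3* (-0.81, -2.76 to 1.14) and *Pf4* (-0.02, -0.32 to 0.29) had overlapping groups, and the interval of *Pf4* was the narrowest. The log2 sum of the 5 ligands in untreated minus that in NK cell-depleted mice was -1.07 (two-sided exact permutation test, p = 0.1, the smallest that 3 against 3 tumors allow).

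The third comparison set NK cell-depleted *Ptgs*-/- tumors against *Ptgs*+/+ tumors, and it shares its groups with the first 2. Of the 8 genes, 6 passed the test, all lower without COX, against 5.87% of all genes lower and 6.63% higher, and 4 were called lower, against 0.701%. *Cxcl3*, which is among both, passed the filter only through *Ptgs*+/+ tumors, so its being lower here is not independent of the filter either. Every NK cell-depleted tumor lay below every *Ptgs*+/+ tumor for 6 of the 8 genes (all but *Cxcl3* and *Cxcr1*), against 12% of all genes tested. The fitted changes were -3.44 for *Ppbp* (SE 0.28, adjusted p = 5.03e-05), -1.63 for *Cxcl5* (SE 0.23, adjusted p = 0.000871), -1.69 for *Cxcl1* (SE 0.39, adjusted p = 0.016) and -2.25 for *Cxcl3* (SE 0.65, adjusted p = 0.0435). *Cxcr2* (-1.15, adjusted p = 0.0131) and *Pf4* (-0.78, adjusted p = 0.00292) fell by less than the call demands, and *Cxcl2* had a fitted change of -1.65 (adjusted p = 0.0743). The number called dropped from 4 to 2 without *Ptgs*+/+ replicate 4 or without any of the 3 NK cell-depleted tumors, and in each case *Ppbp* and *Cxcl5* were the genes that stayed. *Cxcl1* missed 0.05 without any NK cell-depleted tumor (adjusted p 0.0539 to 0.0724), *Cxcr2* without NK cell-depleted replicate 1 (0.0618) or 3 (0.0716), and *Cxcl3* without *Ptgs*-/- replicate 2 or 3 or any NK cell-depleted tumor (0.0509 to 0.151). *Cxcl3* also missed it with the code as a term, among libraries of the first code and with only the 2 groups compared. It passed in 8 of 16 alternatives. Against the first comparison, the fitted fall was smaller for *Cxcl5*, *Ppbp*, *Cxcr2*, *Cxcl1*, *Cxcl2* and *Cxcl3* and about the same for *Pf4* (-0.80 and -0.78). Since all groups share 1 fit, these gaps only restate the second comparison. There *Cxcl5* alone passed the test, and the groups overlapped for *Cxcl2* and *Cxcl3*.

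Muscle genes differed in both comparisons that use NK cell-depleted tumors. Of 4 skeletal muscle genes, *Acta1*, *Ckm* and *Myh4* were called higher there than in either other group, with fitted changes of 5.55 to 5.82 against *Ptgs*+/+ tumors, and of -3.97 to -3.66 in the second comparison, that is lower in untreated mice. *Myh4* was also called higher in the first comparison (1.95, adjusted p = 0.0325). Their summed level was 1670 to 3940 CPM against 11.4 to 263 CPM in the 7 tumors of untreated mice. Of the neutrophil list, *S100a8* (-1.26, adjusted p = 0.00237) and *S100a9* (-1.14, adjusted p = 0.0116) were lower in *Ptgs*-/- tumors of untreated than of NK cell-depleted mice, and its summed level was 117 to 180 CPM against 199 to 252 CPM. *Retnlg* was called higher in NK cell-depleted than in *Ptgs*+/+ tumors (1.77, adjusted p = 0.0139). The part of muscle and of neutrophils in these differences was not tested.

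**Figure D4:**
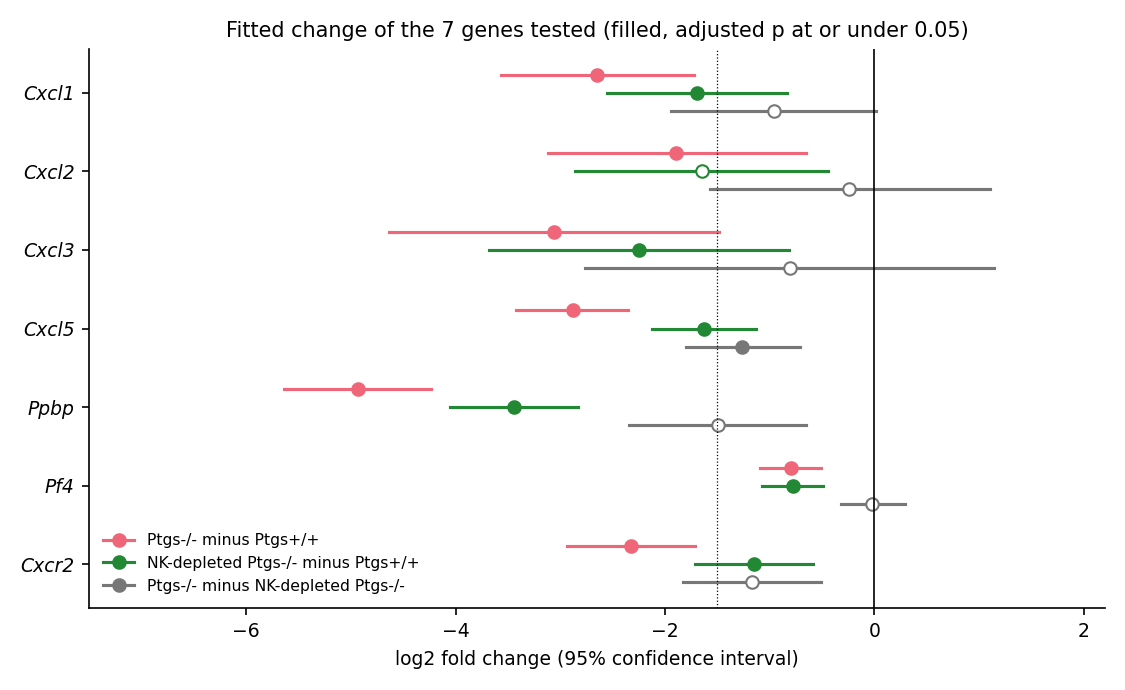
Fitted log2 fold change with its 95% confidence interval (horizontal axis) for the 7 genes tested and the 3 comparisons. Filled points have an adjusted p at or under 0.05, and the dotted line marks -1.5. *Ppbp* lies farthest from zero in both comparisons with *Ptgs*+/+ tumors (-4.93 and -3.44), and *Pf4* nearest to it in all 3 (-0.80, -0.78 and -0.02).

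The order of the levels changed with the genotype. In *Ptgs*+/+ tumors the mean CPM fell from *Pf4* (443.9) over *Cxcl5* (102.0), *Cxcl1* (22.9 ± 11.5), *Ppbp* (19.7 ± 4.28), *Cxcl2* (18.4 ± 12.4), *Cxcr2* (10.5 ± 2.37) and *Cxcl3* (3.12 ± 2.44) to *Cxcr1*. *Cxcl1*, *Ppbp*, *Cxcl2* and *Cxcr2* had overlapping ranges in neighboring places, while *Pf4*, *Cxcl5* and *Cxcl3* stood apart from their neighbors. In *Ptgs*-/- tumors *Cxcl2* (5.26 ± 2.81) and *Cxcl1* (3.84 ± 1.88) overlapped, *Ppbp* (0.674 ± 0.339) came below *Cxcr2* (2.16 ± 0.720) in every tumor, and *Ppbp* and *Cxcl3* (0.380 ± 0.209) overlapped. In NK cell-depleted tumors *Cxcl1* (7.22 ± 1.27), *Cxcl2* (6.05 ± 3.54) and *Cxcr2* (4.82 ± 1.02) came between *Cxcl5* (33.8 ± 1.17) and *Ppbp* (1.86 ± 0.215), and *Cxcl2* overlapped both of its neighbors.

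Of 8 cytokine genes listed as possible inducers of CXCR2 ligands, 3 were tested, and *Il1b* and *Il6* fell with the ligands. Whether these cytokines act on the ligands in these tumors was not tested. *Il1b*, which encodes interleukin-1β, had 97.8, 82.5, 85.0 and 95.9 CPM in *Ptgs*+/+, 23.6, 19.1 and 20.7 CPM in *Ptgs*-/- and 20.2, 22.3 and 24.2 CPM in NK cell-depleted tumors. It fell in the first (-2.15, adjusted p = 6.13e-06) and the third comparison (-2.05, adjusted p = 8.91e-06), and the groups without COX overlapped (-0.10, adjusted p = 0.8). *Il6* had 11.1, 4.43, 4.13 and 7.53 CPM in *Ptgs*+/+ and 0.414 to 0.982 CPM in *Ptgs*-/- tumors and fell by 3.39 (adjusted p = 0.00157). *Tnf* was at 1.15 to 1.79 CPM in *Ptgs*+/+ and 3.07 to 3.52 CPM in *Ptgs*-/- tumors (1.06, adjusted p = 0.0562). *Il17a*, *Il17f* and *Csf2* were at or under the floor in all libraries, and *Il1a* and *Csf3* did not pass the filter. *Csf3*, which encodes G-CSF, had 0.418 to 0.702 CPM in *Ptgs*+/+ and 0 to 0.0912 CPM in *Ptgs*-/- tumors.

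Of 8 feedback genes of NF-κB, none passed in the first comparison, and the list median was 0.20. *Nfkbia*, which encodes the inhibitor IκBα, was at 507 to 643 CPM in *Ptgs*+/+ and 640 to 686 CPM in *Ptgs*-/- tumors (0.12, adjusted p = 0.373), and *Tnfaip3*, which encodes A20, had a fitted change of 0.73 (adjusted p = 0.216). *Nfkbiz* fell in NK cell-depleted against *Ptgs*+/+ tumors (-0.77, adjusted p = 0.0459), alone in the list.

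No gene of the signaling chain below CXCR2 fell with it. Of 12 listed, 7 rose in *Ptgs*-/- against *Ptgs*+/+ tumors and none fell, with a median of 0.50, where 12.1% of all genes tested rose. Among them were *Rac2* (1.41, adjusted p = 0.000256), a GTPase of blood cells, the kinase gene *Fgr* (0.43), *Plcb2* (0.96), *Prex1* (0.94), the arrestin gene *Arrb2* (0.73) and *Pik3cg* (0.57). These genes are also used by other leukocytes. Only *Rac2* passed in NK cell-depleted against *Ptgs*+/+ tumors (0.76, adjusted p = 0.0119). Of 10 genes of neutrophil adhesion, 5 rose in the first comparison, against 12.1% of all genes tested. Among them were the integrin genes *Itgal* (1.25), *Itgam* (0.92) and *Itgb2* (1.15). The macrophage and monocyte genes named above also rose there, and the part of these cells in the adhesion genes was not tested. *Sele* (-0.99, adjusted p = 0.0475), the E-selectin of endothelium, and *Podxl* (-0.61) fell, against 11% of all genes. Beside them the endothelial markers *Pecam1* (-0.95) and *Cdh5* (-1.04) fell, and *Kdr* was at 0.02 (adjusted p = 0.961).

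Few of the other neutrophil attractants and their receptors passed. Of 10 listed, *Alox5* (0.72, adjusted p = 0.0435) rose in the first comparison and *Cxcl12* (-1.14, adjusted p = 0.0244), the ligand of CXCR4, fell. The receptors *Fpr1* (0.56), *Ltb4r1* (0.23), *C5ar1* (-0.02) and *Ccr1* (0.33) did not pass, with adjusted p between 0.139 and 0.914. *Fpr2*, a formyl peptide receptor, was higher in *Ptgs*-/- tumors of untreated than of NK cell-depleted mice (1.35, adjusted p = 0.0137), the direction opposite to that of *Cxcl5*.

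The 6 chemokine genes followed here lie on the plus strand of chromosome 5, from *Cxcl5* to *Cxcl2*, whose starts are 144.5 kb apart. *Cxcl15*, also called lungkine and counted above among the other neutrophil attractants, is the remaining protein-coding gene within these bounds. It ranged over 1.44 to 7.43 CPM in *Ptgs*+/+, 0 to 10.0 CPM in *Ptgs*-/- and 0.856 to 8.34 CPM in NK cell-depleted tumors (-0.44 in the first comparison, adjusted p = 0.778). In the 250 kb on either side, the next gene beyond *Cxcl2*, *Mthfd2l*, had 4.21 to 5.36 against 2.69 to 3.93 CPM (-0.61, adjusted p = 0.0526). Farther out, *Ereg*, the gene of the growth factor epiregulin, had 163.3, 164.2, 134.9 and 109.1 CPM in *Ptgs*+/+ tumors against 39.1, 21.6 and 27.3 CPM in *Ptgs*-/- and 37.5, 44.4 and 38.1 CPM in NK cell-depleted tumors. It was called lower in the first (-2.35, adjusted p = 6.39e-05) and the third comparison (-1.87, adjusted p = 0.000195). *Areg*, which encodes amphiregulin, fell by 1.07 in the first (adjusted p = 0.00272). *Rassf6* had a fitted change of -0.50 (adjusted p = 0.691), *Afm* and the gene *5830473C10Rik* had no counts, and *Epgn* stayed under 1 CPM. The order of the changes did not follow position, since *Pf4* (-0.80) lies between *Ppbp* (-4.93) and *Cxcl3* (-3.06).

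Near *Cxcr2* and *Cxcr1* on chromosome 1, *Tns1* rose in the first comparison (0.78, adjusted p = 0.00496), *Arpc2* had a fitted change of 0.21 (adjusted p = 0.1) and *Rufy4* stayed under 1 CPM.

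**Figure D5:**
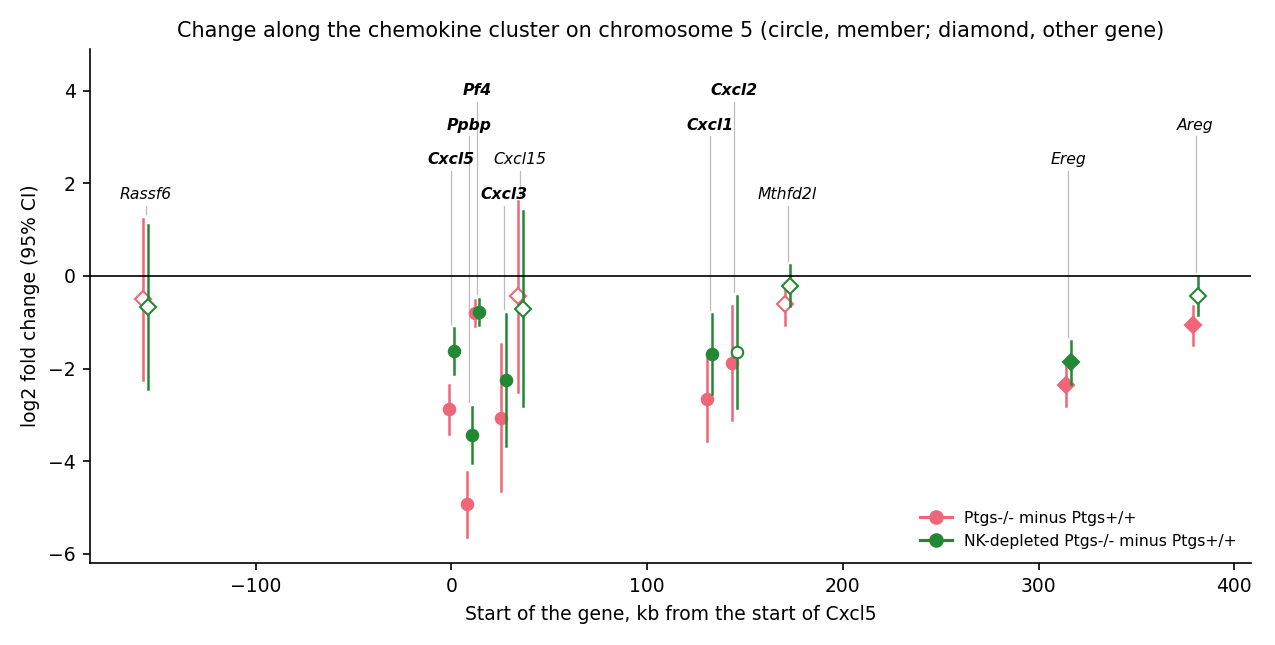
Fitted log2 fold change with 95% confidence interval against the distance of a gene's start from that of *Cxcl5* in kb, for the first and the third comparison. Circles are the 6 chemokine genes followed here and diamonds their tested neighbors, the chemokine gene *Cxcl15* among them. Points are filled where the adjusted p is at or under 0.05. In the first comparison *Ppbp* (-4.93) and *Cxcl3* (-3.06) are lowest, with *Pf4* (-0.80) between them. *Cxcl15* and *Mthfd2l* are also nearer to zero, and *Ereg*, 315.3 kb away, is low.

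Over the 10 libraries, Pearson's r of log2 CPM between pairs of the 7 detected genes ran from 0.59 for *Cxcl2* with *Cxcr2* to 0.96 for *Cxcl5* with *Ppbp*. Group differences shared by these tumors enter every such value, and no test was made. *Ppbp* was most like *Myo1d* (0.992), *Ereg* (0.989), *Ociad2* (0.988), *Wnt10a* (0.988) and *Arhgef17* (0.987), of which *Ereg* is in the same region of chromosome 5. *Cxcr2* was most like *S100a9* (0.980), *Pde1a* (0.970), *Lap3* (0.970), *S100a8* (0.968) and *Haus1* (0.967). *Cxcl5* was most like *Gm5483* (0.984), *Arl6* (0.975), *Gm5900* (0.975), *Tyw3* (0.973) and *S100a8* (0.971), so that *S100a8* stood in the lists of both the most abundant ligand and the receptor. *Cxcl1* was most like *Shb* (0.964), *Nrp2* (0.964), *Fst* (0.957), *Rabggtb* (0.957) and *Arhgef28* (0.949). *Cxcl2* was most like *Ppwd1* (0.931), *Clasp2* (0.922), *Evi5* (0.912), *March7* (0.910) and *Mxd1* (0.909), of which only *Mxd1* passed the test in the first comparison. *Cxcl3* was most like *Slc35a1* (0.951), *Hmgb2* (0.938), *Pcdhb17* (0.934), *Zfp618* (0.933) and *Ubr7* (0.928). *Pf4* was most like *Stx18* (0.971), *6720489N17Rik* (0.969), *Pcolce* (0.965), *Gdpd2* (0.964) and *Ube2d3* (0.961).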

How the data were processed

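RNA from 10 tumors was sequenced with QuantSeq 3′ libraries. Per the study's methods, the authors trimmed reads with BBDUK, fqtrim and cutadapt, ran STAR on GRCm38 and assigned reads to Ensembl genes by featureCounts. What the authors deposited are raw counts, neither normalized nor pooled. Whether the counting used strand is not given in the sources used here. Groups come from the labels. Of 45706 identifiers, 45143 were named by GENCODE M21 (GRCm38).

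Counts were tested with edgeR 4.0.16 in R 4.3.3 (quasi-likelihood test, TMM factors, filterByExpr, 1 fit of all 10 libraries, 14550 genes), with p-values adjusted by Benjamini-Hochberg over all genes tested. Genes passed at an adjusted p at or under 0.05 and were called if the log2 fold change was also 1.5 or more in size. Ratios and sums were tested by exact permutation, two-sided, in scipy 1.17.1, and ratios used a pseudocount of 1 CPM. Coding sequences were aligned with Biopython 1.88.

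The members and lists were chosen with earlier results of these data known, so no count of members is independent evidence. *Cxcl1*, *Cxcl2*, *Il1a*, *Il1b*, *Il6* and *Csf3* also stand in a list the study drew up. Named genes are the members, *Ptgs1*, *Ptgs2*, *Ncr1*, protein-coding neighbors within 250 kb (chromosome 5) or 50 kb (chromosome 1), the 5 genes most like each member by Pearson's r of log2 CPM, called or defining genes of the lists, and others of the lists chosen after their values were seen. Libraries of a group differed by a chi-square of 7.75 to 32.3 per degree of freedom, so none was a copy. The fit was tested on simulated data. Alternatives were DESeq2 1.42.0, a likelihood ratio test, other scalings and filters, fewer groups, the code as a term, 1 code alone, the label number as a block, other pseudocounts and each library left out. Some genes of the lists are counted but not reported by name here.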

Additional observations from a re-analysis of the deposited data

How the results depend on the processing

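In *Ptgs*-/- against *Ptgs*+/+ tumors, 6 genes were called with all libraries and 4 to 6 with a library left out (4 without *Ptgs*+/+ replicate 1, where *Cxcl3* was not testable), and each of the 7 tested genes kept its direction under every alternative that tested it. Between *Ptgs*-/- tumors of untreated and NK cell-depleted mice the count of 0 called became 1 with DESeq2 and 1 with the adjusted p alone, and stayed at 0 with a library left out. In NK cell-depleted against *Ptgs*+/+ tumors, the count of 4 became 2 with at least 10 counts asked of every library, 2 among libraries of the first code, and 2 to 4 with a library left out.

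In the comparison of untreated with NK cell-depleted mice, *Pf4* changed sign, from -0.02 to 0.01 with library size alone, 0.01 with at least 10 counts in every library, 0.06 with the code as a term, 0.12 with the first code alone and -0.18 to 0.12 with a library left out, and *Cxcl2* ranged from -0.74 to 0.17 with a library left out. These values were never past the threshold. In NK cell-depleted against *Ptgs*+/+ tumors, the log2 ratio of *Cxcl2* to *Cxcl1* (-0.02) became 0.09 with a pseudocount of 5 CPM and -0.38 to 0.39 with a library left out, that of *Cxcl3* to *Cxcl1* (0.30) became -0.09 with a pseudocount of 0.25 CPM and -0.36 without one, and that of *Cxcl5* to *Cxcl1* (-0.12) ranged from -0.30 to 0.07 with a library left out. In the first comparison that of *Cxcl3* to *Cxcl1* (0.84) became 0.29 with 0.25 CPM and -0.25 without a pseudocount, and that of *Ppbp* to *Pf4* (-2.87) ran from -4.24 without one to -1.36 with 5 CPM. Leaving out the pseudocount was chosen after seeing the data. Added CPM weigh most on *Cxcl3* and *Ppbp*, the lowest of these genes in *Ptgs*-/- tumors. For the other changes the cause was not tested.

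Tumors with the same label number showed no steady shared deviation (r from -0.24 to 0.36 over 11 pairs), and the main fit did not pair them. So few pairs, some of them joining tumors of different codes, cannot exclude a pairing. With the label number as a replicate block, 6, 0 and 5 genes were called in the 3 comparisons. *Cxcl5* then missed the threshold in the second (-1.26, adjusted p = 0.0513) and *Cxcl2* passed in the third (-1.79, adjusted p = 0.00664). Over all genes, asking for at least 10 counts in every library (12296 genes tested) moved the genes called in the first comparison from 457 higher and 147 lower to 241 and 64, and in the second from 47 and 120 to 9 and 27. In the second, libraries of the first code gave 26 and 61, and the genes that passed rose from 209 to 377 with DESeq2 and 403 with the likelihood ratio test. Depth limits *Cxcr1*, *Cxcl3* and *Ppbp* in *Ptgs*-/- tumors, where libraries held 0 to 8 counts.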
